A study of Mus musculus with 48 samples.

Results

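The response of liver and colon to the diet of the dam was compared in male mice that ate the same diet after weaning. Arrays titled HH or LH in either organ were taken, 24 arrays of the 48 in the series, with 6 arrays for each of liver HH, liver LH, colon HH and colon LH. The labels give 2 of the liver HH arrays the same animal number, so these were averaged into 1 sample (liver HH replicate 3), which leaves 23 samples, with 5 in liver HH and 6 in each other group. For each gene the liver response (liver LH minus liver HH), the colon response (colon LH minus colon HH) and the first minus the second, called here the difference between organs, were measured on the log2 scale.

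All mice were C57/BL6 offspring sampled at 12 weeks of age and all ate a high-fat diet, as did their dams. The offspring were fasted and then fed again before tissue was taken. The first letter of a group is the diet of the dam through pregnancy and lactation and the second that of the offspring after weaning. Diet H was supplemented with selenium and folate, and diet L was marginally deficient in both. HH and LH mice therefore both ate the supplemented diet from weaning and differed in what their dams ate. RNA of each organ was labelled with Cy3 and hybridised to Agilent 2-colour arrays against a Cy5-labelled multi-organ mouse reference with no dye swap, and the value used throughout is the log2 ratio of mouse over reference. The sources differ on which tissues the reference was made from. Animal numbers in the labels do not pair the liver with the colon of a mouse. The sources used here do not give the dam or litter of each mouse. The fits treat samples as independent, so littermates may be counted as replicates of the dam's diet.

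Selenium is built into selenoproteins, among them glutathione peroxidases, thioredoxin reductases and deiodinases, while folate carries the methyl and formyl groups used to make methionine, thymidine and purines. The liver is the main organ of one-carbon metabolism and of plasma protein secretion, so its cells hold much endoplasmic reticulum (ER), where chaperones of the unfolded protein response fold secreted proteins. The colon wall is a renewing epithelium over smooth muscle, with many resident immune cells.

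The labelled organs matched their markers. Log2 Cy3 signal of the hepatocyte gene Alb was 17.51 to 18.43 on liver arrays and 13.98 to 14.42 on colon arrays, and that of the colonocyte gene Car1 was 17.41 to 18.09 on colon and at most 11.51 on liver arrays. Spots well above background in Cy3 made up 55.3 to 66% of an array in liver and 66.8 to 73.7% in colon. Of 41174 probes, 24752 were measured in both organs, that is well above background on at least 0.5 of the arrays of HH or of LH in each organ. These held 13803 named genes, each taken at its brightest probe. The samples of a group varied to a similar extent in both organs, with a median SD over genes of 0.21 in liver and 0.19 in colon, and the median standard error (SE) was 0.12 for the liver response, 0.12 for the colon response and 0.17 for the difference. In colon HH, replicates 1 and 5 had a log2 Cy3 signal of 11.81 for Xist, an RNA of female cells, against 6.09 to 7.79 in the other samples, although the Y-linked gene Eif2s3y was also present in both (10.7 and 10.09). The Xist signal of those 2 samples went against the description of the mice as male. Some counts of probes and the difference of Alg8 are also given without them, while all other colon values include both.

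The liver responded and the colon did not at the threshold used here, a false discovery rate (FDR, from limma with Benjamini-Hochberg adjustment over all probes) under 0.05 with a change over 1.5-fold. In liver 288 of 41171 tested probes were called (0.7%), 180 higher and 108 lower in LH. In colon 0 probes were called (0%), 1099 had an unadjusted p under 0.05 (2.67%), and the lowest adjusted p was 0.469. The difference between organs was called for 3 probes (0.00729%), 2 with a positive and 1 with a negative difference, while 3799 probes had an unadjusted p under 0.05 (9.23%). The number of calls depended on the fit. With the slide, which carried 1 array of each diet group of 1 organ, as a block, 133 probes were called for the difference and 563 for the liver, 0 for the colon. That fit entered both arrays of the repeated animal as separate liver HH samples, and with only its first or only its second array the block gave 74 or 204 probes for the difference and 417 or 560 for the liver. Counting the animal as 2 mice without the block gave 5 and 357. With 1 weight per array, the numbers were 207, 806 and 0, and with each organ fitted alone liver calls fell to 18. The 3 probes called for the difference were among those called with the block and with the weights.

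Genes that changed in liver stood near 0 in colon, as did genes as a whole. Among the 13803 genes measured in both organs, 64 rose in liver (0.464%) and 59 fell (0.427%). The 64 had a median liver response of 0.70 and a median colon response of 0.01, and 34 of them (53.1%) had the same sign in colon. The 59 had medians of -0.73 in liver and -0.02 in colon, and 34 (57.6%) had the same sign. Over all genes 51% had the same sign in both organs. None of the 123 genes reached 1.5-fold in colon in its liver direction, and only 4 of all 13803 genes did. The colon response of all genes had a median of 0.01 and quartiles of -0.05 and 0.07. Across the 13803 genes the responses of the organs had a Pearson correlation of 0.07 and a Spearman correlation of 0.03, given as a description, since genes are not independent replicates.

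**Figure D1:**
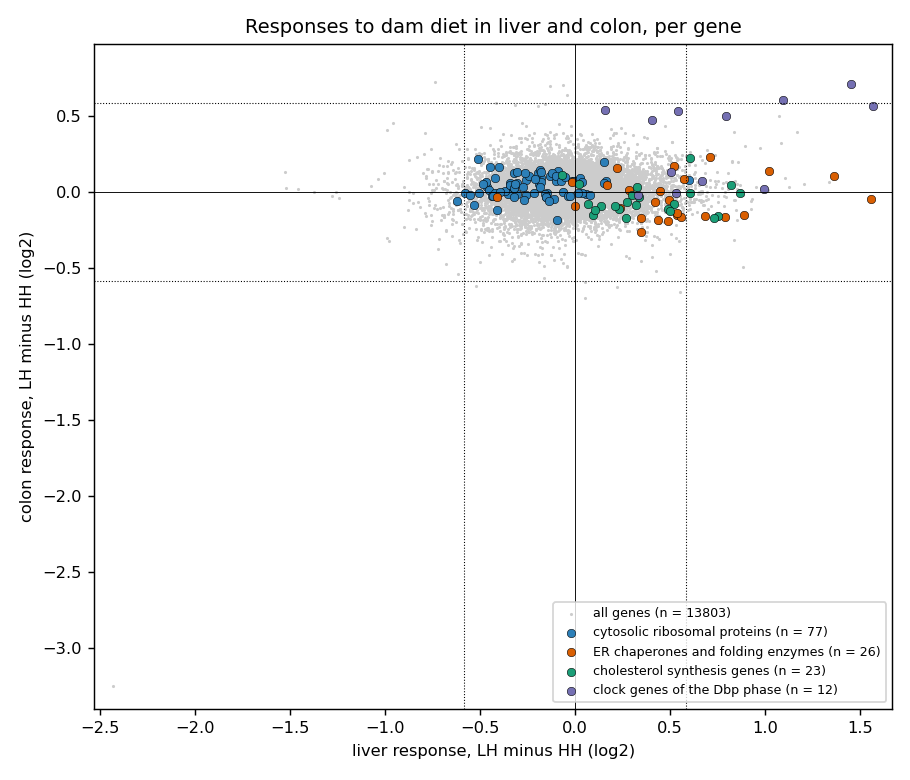
Liver response (x axis) against colon response (y axis), both LH minus HH in log2 units, with 1 point per gene measured in both organs (n = 13803), coloured for 4 gene lists and with dotted lines at 1.5-fold. ER chaperones and cholesterol synthesis genes lie to the right near 0 on the y axis, ribosomal protein genes to the left near 0, and several clock genes lie above and to the right; the point at the lower left is Cyp1a1.

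A looser sorting, used to describe rather than to call, took an unadjusted p under 0.05 and a change over 1.5-fold in an organ. A gene was put down to 1 organ if the other stayed under 1.5-fold and the difference had an unadjusted p under 0.05. This gave genes of liver that were higher (108) or lower (97) in LH, 2 genes of colon, both higher, 0 genes that moved alike in both and 1 that moved in opposite directions. Of the 13803 genes these were 0.782% and 0.703% for liver, 0.0145% for colon and 0.00724% for opposite directions. With no bound on the fold change, 9.14% (higher) and 11.6% (lower) of genes had an unadjusted p under 0.05 in liver. In colon the shares were 1.12% and 0.978%, and for the difference 4.82% (positive) and 7.01% (negative). Liver HH and LH samples did not overlap in 349 genes (2.53%) and colon HH and LH samples in 19 (0.138%).

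Alg8, a glucosyltransferase that extends the sugar chain attached to proteins in the ER (chr7:97371567-97392159, GRCm38.p6), was the named gene measured in both organs that was called for the difference. In liver HH samples its log2 ratio was 0.29, 0.27, 0.38, 0.40 and 0.19, and in liver LH samples it ran from 0.61 over a median of 0.75 to 1.08. In colon HH it ran from 0.08 over 0.15 to 0.32 and in colon LH from -0.11 over -0.01 to 0.16. Every liver LH sample was above every HH sample, whereas in colon the groups overlapped and LH was lower on all 6 slides. The difference was 0.67 (SE 0.11), or 1.59-fold, with an adjusted p of 0.0482 from limma, and the liver response itself (0.50, adjusted p = 0.00386) was under 1.5-fold. Leaving out 1 sample at a time, the difference stayed between 0.61 and 0.71 and passed the threshold in 3 of 23 fits. Without the 2 colon HH samples with Xist signal it was 0.67 with an adjusted p of 0.096, and over 18 processing alternatives it ran from 0.59 to 0.83 and passed in 12.

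S100a8, a calcium-binding protein of neutrophils and monocytes, had the negative value called for the difference, -1.39 (SE 0.23, adjusted p = 0.0482 from limma), but was measured in liver alone. Its liver HH samples were at 0.63, -0.28, 1.24, 0.50 and 0.36 and its liver LH samples ran from -0.97 over -0.87 to -0.38, with no overlap. In colon the probe was well above background on 0 of 12 arrays, so it has no measured colon level or response, and the value sets the liver response against background. In bulk tissue, fewer cells of a type and less RNA per cell cannot be told apart. The remaining called probe, A_52_P494841, has no gene name here. It rose in liver by 1.13 (adjusted p = 0.000439) from 0.53 to 1.44 in HH to 1.83 to 2.53 in LH, and changed by -0.03 in colon. A probe of Pigu, a subunit of the enzyme that attaches lipid anchors to proteins, passed the FDR with a difference of 0.54, under 1.5-fold, while the brighter probe of that gene gave -0.04, so its probes disagree.

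Genes below the top were named by rank, the 6 with the lowest p for the difference in each direction among those over 1.5-fold. On the positive side Alg8 was followed by Slc10a1, the bile acid uptake transporter of hepatocytes, with 1.71 to 2.18 in liver HH, 2.56 to 3.06 in liver LH and medians of -3.40 and -3.38 in colon HH and LH. Slc10a1 rose in liver by 0.83 (SE 0.11, adjusted p = 0.000752), with no overlap, and the difference of 0.79 had an adjusted p of 0.115. The olfactory receptor gene Olfr1537 (0.61), the transcription factor Klf12 (0.66), the scaffold protein gene Pdzk1 (0.62) and the creatine transporter Slc16a12 (0.81) completed the list, all with liver LH above every liver HH sample and colon responses between -0.06 and -0.01. Their adjusted p for the difference lay between 0.115 and 0.217. In colon HH and LH the medians were -4.69 and -4.72 for Pdzk1 and -3.57 and -3.59 for Slc16a12. Their colon responses were thus taken at low levels, as was that of Slc10a1.

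The 6 on the negative side were Shfl, Il1b, Emilin3, S100a9, Lair1 and Acyp2, and Il1b, S100a9 and Lair1 are expressed in leukocytes. Il1b, the cytokine interleukin-1 beta, ran from 0.46 over 0.88 to 1.51 in liver HH and from -0.27 over 0.06 to 0.47 in liver LH. In colon it went the other way, from -0.08 over 0.16 to 0.53 in HH to 0.17 over 0.49 to 1.21 in LH. The liver response was -0.79 (adjusted p = 0.0200) and the colon response 0.39 (unadjusted p = 0.0275, under 1.5-fold), and the groups overlapped in each organ. S100a9, the partner of S100a8, fell in liver by 1.46 (adjusted p = 0.00376) and stood at 0.02 in colon. Lair1, an inhibitory receptor of leukocytes, fell in liver by 0.87 (adjusted p = 0.0143) with a colon response of 0.21. Acyp2, an acylphosphatase, fell by 0.79 in liver with no overlap between groups, and Shfl, an inhibitor of viral translation, by 0.79. Emilin3, an extracellular matrix protein, had -0.50 in liver, under 1.5-fold, and 0.22 in colon. With the slide as a block and both arrays of the repeated animal entered as samples, 11 of these 12 genes had a called difference, and the exception was Klf12 (0.62, adjusted p = 0.0827). With only the second array of that animal 11 were called, and with only the first 6 were. The 12 genes were picked by the p of this difference in the same arrays, so these counts are not independent support. The block with both arrays also called more probes in all, 133 against 3.

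Few genes met the looser bounds in colon. Ccl8, a chemokine that attracts monocytes, ran from -0.33 over 0.37 to 1.20 in colon HH and from 0.39 over 1.15 to 1.75 in colon LH, so the groups overlapped. Its colon response was 0.69 (unadjusted p = 0.00537) and its liver response -0.13, and the difference of -0.83 had an adjusted p of 0.442. Cubn, an endocytic receptor for vitamin B12 bound to intrinsic factor, had a colon response of 0.64 (unadjusted p = 0.00789) and a difference of -0.69 (adjusted p = 0.528), and its liver response of -0.04 changed sign with the processing. Without the 2 colon HH samples with Xist signal, 29 probes rather than 8 were put down to colon, and 1 was called there. Genes of DNA replication and G1/S had medians of -0.11 in liver and -0.14 in colon over 34 genes. In colon 5 of them (14.7%) had an unadjusted p under 0.05, all lower, against 0.978% of all genes. Mitosis genes had medians of -0.29 and -0.21 over 21 genes, with 2 (9.52%) lower at that p in colon. Liver HH replicate 3 was the highest liver sample in both list means, 0.26 and 0.55.

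The 1 gene that moved in opposite directions was Sirpb1b, a receptor of myeloid cells. Its colon samples did not overlap, with -0.81 to -0.39 in HH and -0.21 to 0.85 in LH, and its colon response was 0.72 (unadjusted p = 0.0102). In liver HH the samples ran from -0.07 over 0.49 to 2.24, the highest being replicate 3, and in liver LH from -0.28 over -0.07 to 0.23, with overlap. The liver response of -0.74 had an adjusted p of 0.173 and the difference of -1.46 (SE 0.37) an adjusted p of 0.229, so neither passed. Without liver HH replicate 3 the liver response was -0.34, under 1.5-fold, the difference was -1.07, and 0 probes were in the opposite class.

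**Figure D2:**
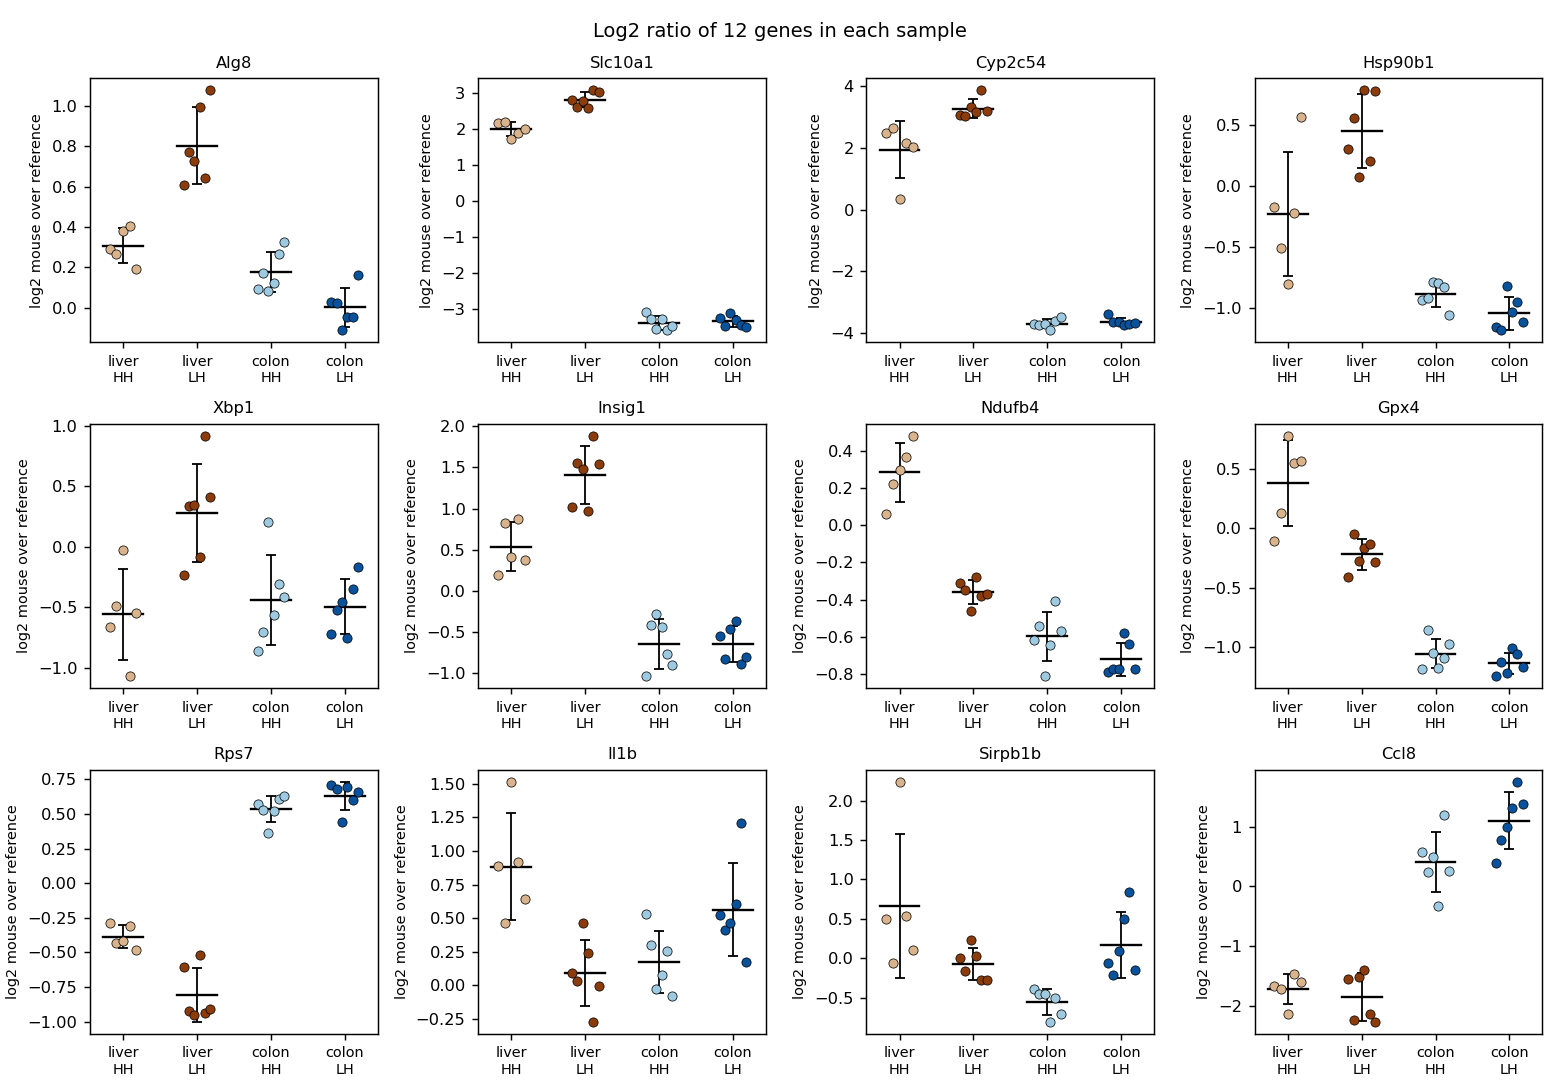
Log2 ratio of mouse over reference (y axis) of 12 genes in liver HH, liver LH, colon HH and colon LH, where each point is 1 sample, the line the group mean and the bar its SD (n = 5 in liver HH, otherwise 6). Alg8, Slc10a1, Cyp2c54 and Insig1 show liver LH samples above every liver HH sample with overlapping colon groups, Ndufb4 and Rps7 show them below, and Sirpb1b shows separate groups in colon.

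Most ER chaperones and folding enzymes, which fold and quality-check secreted proteins, had a higher response in liver than in colon. Of 26 measured genes, 24 (92.3%) had a positive difference, against 43.8% of all genes. The median difference was 0.53 (liver 0.49, colon -0.06), against -0.03 over all genes. The difference had an unadjusted p under 0.05 in the positive direction for 18 of 26 (69.2%) and in the negative direction for 1, but for none was the adjusted p under 0.05. With the slide as a block Calr, a chaperone for glycoproteins, was called (0.76, adjusted p = 0.0437), and with only the first array of the repeated animal it missed the threshold (adjusted p = 0.0626). Averaged over the list and set to the liver HH mean, liver HH samples ran from -0.31 to 0.20 and liver LH samples from 0.38 to 0.71, so every LH sample was above every HH sample. Colon HH samples ran from -0.04 to 0.07 and colon LH samples from -0.08 to 0.00.

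In liver 4 of the 26 rose and 0 fell. Hyou1, an ER chaperone of the Hsp70 family, ran from -0.41 over 0.16 to 0.55 in liver HH and from 0.81 over 1.42 to 2.23 in liver LH, with no overlap. It rose by 1.36 (adjusted p = 0.00651) in liver, against 0.11 in colon. Pdia4, a protein disulfide isomerase, rose by 1.02 (adjusted p = 0.0082) with no overlap, against 0.14 in colon. Sdf2l1, which works with the chaperone BiP, rose by 0.89 (adjusted p = 0.0132), and Hsp90b1, the ER member of the Hsp90 family, by 0.68 (adjusted p = 0.0356). Hsp90b1 ran from -0.80 over -0.22 to 0.56 in liver HH and from 0.07 over 0.43 to 0.78 in liver LH, with overlap, and was higher in LH on 5 of 6 liver slides and on 0 of 6 colon slides. Both arrays of the repeated animal are among the HH arrays of those liver slides, so the slides are not independent. Hspa5, which encodes BiP, had a liver response of 0.44 (adjusted p = 0.311) and a colon response of -0.19. Sec61a1, the channel through which proteins enter the ER, had 0.42 in liver (adjusted p = 0.0132, under 1.5-fold) and -0.07 in colon, and Dnajb9, a BiP co-chaperone, was the gene with the lowest liver response, -0.41.

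Among 15 regulators of the unfolded protein response the median difference was 0.25, and 1 rose in liver. This was Xbp1, the transcription factor that drives ER chaperone genes, with -1.07 over -0.55 to -0.03 in liver HH and -0.23 over 0.34 to 0.91 in liver LH. Xbp1 rose by 0.84 (adjusted p = 0.0276) in liver and stood at -0.05 in colon, while the difference of 0.89 had an adjusted p of 0.292.

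Xbp1 and ATF6 act on the ER stress response element, and 3 promoters that hold it are shown so that the element can be seen, Hsp90b1 from a gene that rose in liver and Hspa5 and Pdia6 from genes that were not called. The element was searched as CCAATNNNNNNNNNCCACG on both strands in the window from 250 bases before to 50 bases after the start of each gene (RefSeq, GRCm38.p6). It was present in 9 of the 22 ER chaperone genes that have a promoter there (40.9%) and in 37 of 27025 genes in all (0.137%). Of the genes that rose in liver, Hsp90b1 holds it in this window, and Pdia4 and Sdf2l1 do not. Capitals mark the fixed letters of the element, which Hsp90b1 holds once on each strand. A match is a description of the letters and not evidence that a factor was bound.

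Hspa5, chr2:34771840-34772139, plus strand: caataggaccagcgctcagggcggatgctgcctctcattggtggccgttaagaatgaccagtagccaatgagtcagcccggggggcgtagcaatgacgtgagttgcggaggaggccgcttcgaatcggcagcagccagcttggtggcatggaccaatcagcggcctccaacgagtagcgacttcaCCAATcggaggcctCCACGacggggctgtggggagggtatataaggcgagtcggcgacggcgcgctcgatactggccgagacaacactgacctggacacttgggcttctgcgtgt
Hsp90b1, chr10:86705395-86705694, minus strand: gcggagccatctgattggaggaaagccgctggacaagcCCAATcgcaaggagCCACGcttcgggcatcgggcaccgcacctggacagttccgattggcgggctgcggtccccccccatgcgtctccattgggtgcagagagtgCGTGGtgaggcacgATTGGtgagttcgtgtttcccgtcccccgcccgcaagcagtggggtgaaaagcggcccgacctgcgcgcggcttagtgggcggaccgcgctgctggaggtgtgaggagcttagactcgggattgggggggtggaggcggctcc
Pdia6, chr12:17266339-17266638, plus strand: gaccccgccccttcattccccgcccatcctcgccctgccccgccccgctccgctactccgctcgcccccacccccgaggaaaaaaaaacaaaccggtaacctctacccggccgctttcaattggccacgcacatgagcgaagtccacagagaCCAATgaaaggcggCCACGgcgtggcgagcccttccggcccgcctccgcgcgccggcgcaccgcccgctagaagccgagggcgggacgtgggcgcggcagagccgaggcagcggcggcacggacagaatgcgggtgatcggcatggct

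Genes of cholesterol synthesis and its control mostly had positive differences, of which none passed the FDR. Of 23, 21 (91.3%) had a positive difference, against 43.8% of all genes. The median difference was 0.37 (liver 0.32, colon -0.08), and 10 (43.5%) had an unadjusted p under 0.05, all positive. The list mean ran from -0.08 to 0.19 in liver HH and from 0.12 to 0.77 in liver LH, where 5 of 6 LH samples were above every HH sample, and from -0.18 to 0.20 in colon HH and -0.19 to 0.12 in colon LH. In liver 5 rose and 0 fell. Insig1, the ER protein that holds back cholesterol synthesis and is itself a target of SREBP, ran from 0.20 to 0.88 in liver HH and from 0.97 to 1.88 in liver LH. It rose by 0.87 (adjusted p = 0.0103) against -0.01 in colon. Fdps, which makes farnesyl diphosphate, rose by 0.75 (adjusted p = 0.0236) with no overlap and stood at -0.16 in colon, and with the slide as a block its difference was 0.93 (adjusted p = 0.0319), or 0.77 (adjusted p = 0.0443) with only the first array of the repeated animal. Msmo1 (0.82) and Fdft1 (0.61), enzymes of the same pathway, also rose.

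**Figure D3:**
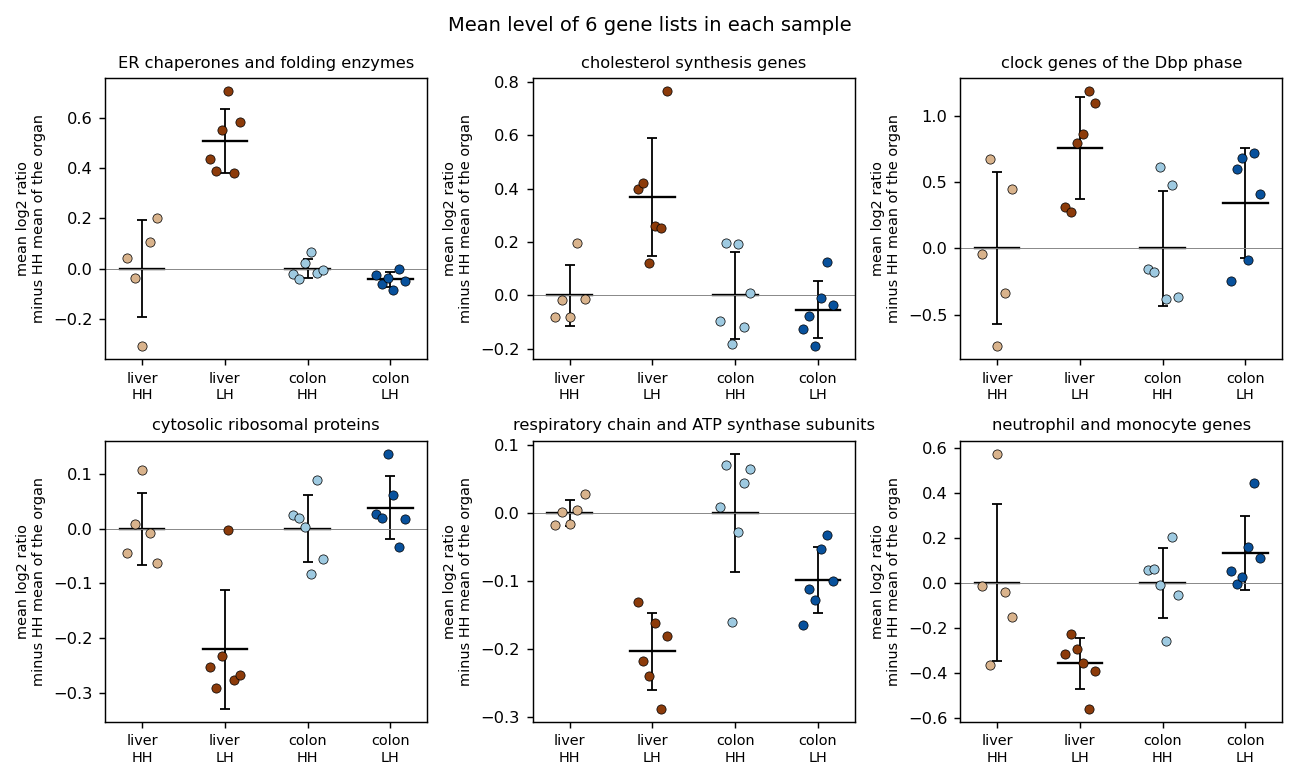
Mean log2 ratio over each of 6 gene lists (y axis), set to 0 at the HH mean of the organ, where each point is 1 sample of liver HH, liver LH, colon HH or colon LH. Liver LH samples lie above every liver HH sample for ER chaperones (0.38 to 0.71 against -0.31 to 0.20) and below every one for the respiratory chain, and clock genes and neutrophil genes spread widely within groups.

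Genes of cytosolic ribosomal proteins mostly had negative differences, of which none passed the FDR (lowest adjusted p = 0.164). Of 77, 9 (11.7%) had a positive difference, against 43.8% of all genes. The median difference was -0.29 (liver -0.22, colon 0.04), and the unadjusted p was under 0.05 for 32 in the negative direction (41.6%) and for 1 in the positive. Single changes were small. In liver 15 (19.5%) passed the FDR in the lower direction, against 1.53% of all genes. Of the 77, 1 (1.3%), Rpl39 (-0.62, adjusted p = 0.0038), was also over 1.5-fold, against 0.427% of all genes. Rps7 ran from -0.48 over -0.41 to -0.29 in liver HH and from -0.95 over -0.92 to -0.52 in liver LH, with no overlap. Its liver response was -0.42 (adjusted p = 0.0099), its colon response 0.09 and its difference -0.52 (adjusted p = 0.164). Rps12 had -0.51 in liver (adjusted p = 0.0306), 0.21 in colon and a difference of -0.72. With median centring in place of loess, which moved the median difference of all genes from -0.03 to 0.08, the list's median was -0.16 and 9 genes had an unadjusted p under 0.05 in the negative direction. Ribosomal genes have many pseudogenes, and which transcripts a probe takes up was not tested.

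Subunits of the respiratory chain and ATP synthase were lower in both organs by their medians, -0.23 in liver and -0.10 in colon. In liver every LH sample was below every HH sample in the list mean (-0.29 to -0.13 against -0.02 to 0.03), and in colon 5 of 6 HH samples were above every LH sample. Of 76 genes the liver response had an unadjusted p under 0.05 in 39 lower and 2 higher, the colon response in 3 lower and 0 higher, and the difference in 13 negative and 3 positive. The median difference of -0.12 was 0.01 with median centring, so the direction of the difference between organs depended on the scaling. Ndufb4, a subunit of complex I, fell in liver from 0.06 over 0.30 to 0.48 in HH to -0.46 over -0.36 to -0.28 in LH, with no overlap. Its liver response was -0.64 (adjusted p = 0.000388), its colon response -0.12 and its difference -0.52 (SE 0.10, adjusted p = 0.115). Atp5e (-0.68), Cox7b (-0.76) and Cox7a2 (-0.76) fell as well, and Sdha, a subunit of complex II, rose by 0.75 (adjusted p = 0.0199). Genes of mitochondrial protein import had medians of -0.16 in liver and -0.10 in colon, with 1 that fell in liver, Tomm5 (-0.61, adjusted p = 0.0073).

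**Figure D4:**
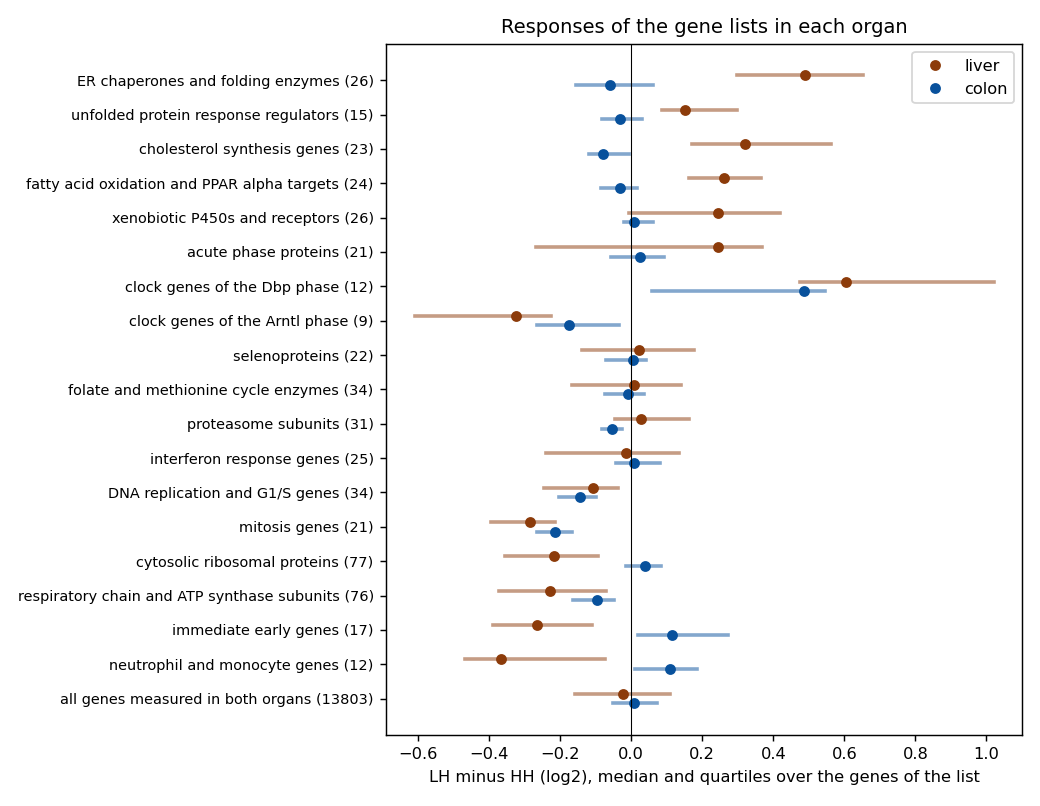
Median (point) and quartiles (bar) of the liver response and the colon response, in log2 units, for 18 gene lists and all genes measured in both organs. ER chaperones have the liver median of 0.49 beside a colon median of -0.06, ribosomal proteins -0.22 beside 0.04, and the clock genes of the Dbp phase are at 0.61 and 0.49.

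Clock genes that peak with Dbp were the list whose medians stood on the same side of 0 in both organs by the widest margin, 0.61 in liver and 0.49 in colon over 12 genes. Their median difference was 0.43, and 10 of the 12 (83.3%) had a positive difference, against 43.8% of all genes. In 3 (25%) the unadjusted p of the difference was under 0.05, all positive, against 4.82% of all genes. No difference passed the FDR (lowest adjusted p = 0.452). The spread within groups was wide. Dbp itself, a transcription factor of the clock output, ran from -1.04 over 0.35 to 2.75 in liver HH and from 0.55 over 2.56 to 2.65 in liver LH, and from -0.37 over 0.43 to 1.68 in colon HH and -0.23 over 1.64 to 2.05 in colon LH. The groups overlapped in both organs, and its liver response of 1.45 had an adjusted p of 0.235. In liver 2 of the 12 rose, Ciart (1.57, adjusted p = 0.0472), a repressor of the clock, and Per3 (0.67, adjusted p = 0.0472), with colon responses of 0.56 and 0.07. In colon Nr1d1 (0.54) and Hlf (0.54) had an unadjusted p under 0.05, and none of the 12 passed the FDR. Of 9 genes of the opposite phase the medians were -0.32 in liver and -0.18 in colon, with 1 that fell in liver, the growth factor gene Pdgfa (-0.61, adjusted p = 0.0161). Clock, also on that list, ran from -0.23 to 0.19 in liver HH and from -0.70 to -0.16 in liver LH, with overlap. The hour at which each mouse was sampled is not given in the sources used here and its part was not tested. The part of the fasting and re-feeding before sampling was not tested either. The D-box TTATGTAA, which Dbp binds, was searched on both strands in the same windows and was present in 1 of 10 genes of the list that have a promoter (10%) and in 299 of all genes (1.11%). That gene is Per3, whose promoter holds the element at 2 places, in capitals.

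Per3, chr4:151044616-151044915, minus strand: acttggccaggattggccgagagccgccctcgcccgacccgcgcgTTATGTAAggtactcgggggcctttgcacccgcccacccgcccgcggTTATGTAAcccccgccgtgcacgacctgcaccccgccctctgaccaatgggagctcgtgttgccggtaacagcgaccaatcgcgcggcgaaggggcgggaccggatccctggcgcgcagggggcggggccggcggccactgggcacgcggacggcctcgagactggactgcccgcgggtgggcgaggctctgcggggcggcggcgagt

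The nutrients of the diet gave no list-wide difference. Selenoproteins had medians of 0.02 in liver and 0.00 in colon over 22 genes, and genes of the folate and methionine cycles 0.01 and -0.01 over 34. Gpx4, the selenoprotein that reduces lipid peroxides, was the 1 gene of both lists that passed the calling threshold in liver. It ran from -0.11 over 0.54 to 0.77 in liver HH and from -0.41 over -0.22 to -0.05 in liver LH, with overlap at 1 sample of each group. Gpx4 fell by 0.60 (adjusted p = 0.00967) in liver, with -0.08 in colon and a difference of -0.52 (adjusted p = 0.290). Dio1, the deiodinase that activates thyroid hormone, had 0.48 in liver (adjusted p = 0.213) and -0.07 in colon. Shmt1, which passes a carbon from serine to folate, had 0.34 in liver (adjusted p = 0.0538), -0.06 in colon and a difference of 0.40 (adjusted p = 0.309). Its other probe gave larger values of the same sign, 0.74 in liver and 0.77 for the difference.

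Some genes of hepatocyte functions rose in liver. Of 26 P450 enzymes and their receptors 2 rose and 0 fell, with a median of 0.24 in liver and 0.01 in colon. Cyp2c54 ran from 0.34 over 2.16 to 2.64 in liver HH and from 3.03 over 3.16 to 3.85 in liver LH, with no overlap, and rose by 1.33 (adjusted p = 0.0103). Cyp2c29 rose by 0.70 (adjusted p = 0.0322). Probes of Cyp2c genes can take up each other's transcripts, and which they measured was not tested. Of 21 acute phase proteins 2 rose, Fn1 (0.92, adjusted p = 0.0099) and Fga (0.84, adjusted p = 0.0172), with -0.06 and 0.07 in colon. Fga was low in colon, with medians of -4.65 in HH and -4.56 in LH. The summed level of 14 hepatocyte markers, as log2 Cy3 signal over the 75th percentile of the array, was 11.15 to 11.47 in liver HH and 11.11 to 11.41 in liver LH. Gene by gene the same markers had a median response of 0.24 in liver and 0.01 in colon, with 5 of 14 at an unadjusted p under 0.05, all higher, and 1 called. Their list mean was above every HH sample in 4 of 6 liver LH samples, and its part in the genes above was not tested.

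Genes of neutrophils and monocytes had medians of -0.37 in liver and 0.11 in colon over 12 measured of 22. Of the 12 differences 11 were negative, while 43.8% of all genes had a positive one. Among the 12 the unadjusted p of the difference was under 0.05 for 4 in the negative direction and 1 in the positive. The summed level of the 22 genes, on the same scale, was 3.85 to 4.53 in liver HH and 3.26 to 3.98 in liver LH, and 4.18 to 4.45 and 4.02 to 4.64 in colon HH and LH. Liver HH replicate 3 carried part of it, since without that sample the median difference went from -0.48 to -0.26 and the liver median to -0.15. Macrophage and Kupffer cell markers had medians of -0.28 and 0.12 over 13 genes, with summed levels of 5.33 to 7.1 in liver HH and 5.17 to 6.47 in liver LH. T cell markers had -0.12 and 0.09 over 9 genes, with 4 negative differences at an unadjusted p under 0.05. Lower medians in liver were not limited to leukocyte lists. Pancreas acinar markers had -0.33 and 0.07 over 14 genes, with 8 negative differences and 1 positive at that p. Erythroid markers had -0.21 and 0.13 over 7 genes, with 3 negative differences. The part of leukocytes in the fall of S100a8, S100a9, Il1b and Lair1 was not tested. Adipocyte markers had the median difference furthest from 0 of the marker lists, 0.58 over 10 genes, and it was -0.02 without liver LH replicate 4 and 0.05 without colon LH replicate 2.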

How the data were processed

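RNA of liver and colon was measured on Agilent 2-colour 44K arrays. The intensity files were deposited as the authors' scanner output (Feature Extraction 10.10.1.1 per the file headers) and hold the Cy3 and Cy5 intensity and local background of each spot. The deposited values of the whole series are log2 ratios that matched global loess without background correction, with the sign turned (reference over mouse), and were used as an alternative. The authors normalised by global loess in limma under R 3.0.2.

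Here spots whose local background exceeded their own signal were given the array's median background, then normexp (offset 50) and global loess were applied, control spots were left out and spots of a probe averaged. limma 3.58.1 (R 4.3.3, data.table version 1.17.8) fitted 4 group means with lmFit, contrasts.fit and eBayes, 19 residual and 4.27 prior degrees of freedom, and Benjamini-Hochberg adjustment over all probes. Groups came from the titles, replicates are numbered in accession order, and each array carries an animal number. A probe was called at FDR under 0.05 and over 1.5-fold. The script was tested on simulated data. For arrays, their number limits the precision.

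Each of the 12 slides carried 4 arrays, 1 of each diet group of 1 organ. Named genes were, at the brightest probe measured in both organs, the 6 lowest p of the difference in each direction over 1.5-fold, the 3 lowest p of each response class, the 2 lowest p of each list and all genes that the study's text names. Other genes of a list, called genes and S100a8, A_52_P494841 and Pigu were named after their values were seen. Members, lists and rules were chosen with earlier results of these data known. Alternatives covered background, signals, normalization, slide, the repeated animal, the groups fitted, array weights, dim probes, thresholds and each sample left out. Fits of each organ alone, and of the slide block with 1 array of the repeated animal, were added after seeing the data. The arrays of HL and LL mice were used only in the fit of all 8 groups and in the scaling between arrays for the Cy3 channel alone. A gene of the lists is not reported here by name.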

Additional observations from a re-analysis of the deposited data

Results flagged for a closer look

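The responses of the organs differed by test for Alg8 (0.67) and the unnamed probe A_52_P494841 (1.16). S100a8 passed the same test (-1.39), but it was not above background in colon, so its value sets the liver response against background and compares no measured colon response.

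In 13 of 244 groups of a named gene, 1 sample stood apart from the rest by Dixon's test, where chance gives about 1 in 20, and 5 of the 13 were liver HH replicate 3, the sample averaged from 2 arrays. These were the log2 ratios of Cdc20 (-1.16) and Cenpe (-2.59), genes of mitosis, Cyp2c54 (0.34), Dgat2 (0.85) and Sirpb1b (2.24). Colon HH replicate 3 stood apart for Per3 (0.18) and Wee1 (0.3), both of the list that peaks with Dbp. The remaining samples were liver LH replicate 5 (3.85) and colon LH replicate 1 (-3.39) for Cyp2c54, liver HH replicate 4 (0.06) and colon LH replicate 5 (0.64) for Dusp1, liver LH replicate 4 (1.07) for Lair1 and colon LH replicate 3 (-0.73) for Shmt1.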

How the results depend on the processing

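The number of probes called for the difference (3) was 1 without the background repair, 5 without background correction, 0 with normexp offset 0, 1 with median centring, 10 in the Cy3 channel alone, 5 from the deposited log ratios, 5 with the repeated animal as 2 mice, 0 with its first array alone, 0 with all 8 groups in the fit, 207 with weights per array, 1 without the 2 colon HH samples with Xist signal and 5 at FDR under 0.1. Liver calls (288) were 181 without the repair, 903 from processed signals, 106 with all 8 groups, 806 with weights per array, 790 with no bound on the fold change, 439 at FDR under 0.1 and 18 with each organ alone. Colon calls (0) were 1 from processed signals and 1 without the 2 Xist samples. Probes put down to liver (453) were 841 at offset 0, 1311 from processed signals and 832 with weights per array. Those put down to colon (8) were 15 without the repair, 5 with 2 mice, 18 with weights per array and 29 without the Xist samples. Probes that moved alike (0) were 3 without the repair, 1 in Cy3 alone, 1 with all 8 groups and 2 with weights per array. Opposite probes (1) were 2 without the repair, 3 from processed signals and 0 with weights per array. The cause of these changes was not tested. Median centring made 83.1% of liver calls higher in LH, against 62.5%, and processed signals 52%.

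With the slide as a block and the repeated animal entered as 2 samples, 133 probes were called for the difference and 563 in liver. With the block and only its first array 74 were called for the difference, and with only its second 204 for the difference and 560 in liver, with 1 alike and 2 opposite. HH and LH arrays of a slide had correlated deviations in colon (0.204 to 0.655), while in liver these ran from -0.15 to 0.34. Of the 288 liver calls 255 remained with the block and 267 with weights per array.

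Leaving out 1 sample at a time gave 0 to 32 probes for the difference (0 in 16 of 23 fits, 32 without liver HH replicate 3), 115 to 576 in liver (115 without liver HH replicate 4, 122 and 157 without liver LH replicates 5 and 6, 576 without liver HH replicate 3, 549 and 445 without liver LH replicates 1 and 4) and 0 to 1 in colon. The classes ranged from 297 to 771 (liver), 4 to 21 (colon), 0 to 2 (alike) and 0 to 2 (opposite). The liver response of Cubn (-0.04) turned to 0.10 at offset 0, 0.10 with median centring, 0.18 from processed signals, 0.0417 with the slide block, 0.0417 with 2 mice, and ran from -0.1737 to 0.039 over the fits without 1 sample, with 0.039 without liver HH replicate 4 and 0.0026 without liver LH replicate 6.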

Other observations

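Cyp1a1, a P450 enzyme induced through the aryl hydrocarbon receptor, varied widely among HH samples. Its response was -2.43 in liver (adjusted p = 0.367 from limma), and the fitted value of -3.25 in colon (unadjusted p = 0.0119) is set against colon LH, where the probe was well above background on only 2 of 6 arrays, so that it passed the filter there through HH. Its log2 ratio was 2.87, -2.74, -3.54, 3.64 and -2.45 in the liver HH samples and 0.62, -2.64, -4.53, 3.10, -3.69 and 2.14 in the colon HH samples. In LH it ran from -3.18 to -2.63 in liver and from -4.43 to -3.48 in colon. High values were thus found in some HH samples of both organs and in none of the LH samples. The labels do not pair the organs of a mouse, so whether the same mice were high in both was not tested.

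Malat1, a long noncoding RNA of the nucleus, and Rmrp were named after their values were seen. Malat1 fell by 1.24 (adjusted p = 0.0182 from limma) with -0.04 in colon, and Rmrp, the RNA of an RNA-processing complex, fell by 1.26 (adjusted p = 0.00913) with 0.00 in colon.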
